A study of Mus musculus with 17 samples.

Results

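The 10 chemokines described here are Ccl2, Ccl5, Ccl7, Ccl20, Cxcl1, Cxcl9, Cxcl10, Cxcl12, Cxcl16 and Cx3cl1, measured in mouse pancreatic islets during culture. They were matched by symbol to the array's probe annotation, and every probe set whose only symbol was one of them was kept. This gave 19 of 45037 probe sets and 10 of the 18193 genes that had a probe set of their own. Where a gene had several probe sets, the one whose mean level was highest stands for it, and the others are given beside it.

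All samples were islets of C57BL/6 mice that carried no transgene or treatment in the labels. The islets were kept in F12K medium with fetal bovine serum and harvested at 0, 24 or 48 h after isolation. Each of 6 batches was pooled from the islets of 4 mice and divided between the 3 times, so the replicate number of an array is its batch. The 17 arrays analysed here were 5 at 0 h, 6 at 24 h and 6 at 48 h, and batch 5 has no 0 h array among those analysed here.

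Chemokines are small secreted or membrane-anchored proteins that guide leukocytes along concentration gradients by binding receptors that signal through G proteins. Most are transcribed only when a cell senses cytokines, microbial products or injury, through the transcription factors NF-kappaB and, for some, the interferon pathway, while a few such as Cxcl12 are made constantly by stromal and endothelial cells. In islets they are made by beta cells, ductal and vascular cells and resident macrophages, and they are known for drawing in T cells in autoimmune diabetes and monocytes to transplanted islets.

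Promoters of Cxcl10, Cxcl1, Cxcl9 and Cxcl12 are shown because the first pair rose in culture on at least 1 probe set, Cxcl9 is close to Cxcl10 on its chromosome and did not pass, and Cxcl12 fell. The RefSeq promoter table (GRCm38.p6) matched 6 of the 10 genes, and each window holds 250 bases before and 50 bases from the gene's start. Capitals mark NF-kappaB sites matched to the Rel consensus (the kappaB motif of 10 letters), the core of the interferon-stimulated response element GAAANNGAAA, the letters TATAAA, and the GC box as GGGCGG, each searched on both strands, so that CCGCCC in capitals is GGGCGG on the other strand.
Cxcl10, chr5:92348840-92349139, minus strand: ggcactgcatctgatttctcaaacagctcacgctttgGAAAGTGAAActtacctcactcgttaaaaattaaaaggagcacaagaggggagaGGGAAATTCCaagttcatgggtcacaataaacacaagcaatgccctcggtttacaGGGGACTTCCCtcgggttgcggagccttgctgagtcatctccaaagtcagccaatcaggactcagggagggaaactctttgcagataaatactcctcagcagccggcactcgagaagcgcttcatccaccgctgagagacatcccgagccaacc
Cxcl1, chr5:90890995-90891294, plus strand: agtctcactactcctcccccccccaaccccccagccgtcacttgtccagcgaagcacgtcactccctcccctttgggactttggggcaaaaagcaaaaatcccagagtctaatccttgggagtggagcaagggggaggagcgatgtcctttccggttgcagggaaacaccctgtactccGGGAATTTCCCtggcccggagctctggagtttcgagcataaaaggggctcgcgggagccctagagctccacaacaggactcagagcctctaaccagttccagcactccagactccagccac
Cxcl9, chr5:92328030-92328329, minus strand: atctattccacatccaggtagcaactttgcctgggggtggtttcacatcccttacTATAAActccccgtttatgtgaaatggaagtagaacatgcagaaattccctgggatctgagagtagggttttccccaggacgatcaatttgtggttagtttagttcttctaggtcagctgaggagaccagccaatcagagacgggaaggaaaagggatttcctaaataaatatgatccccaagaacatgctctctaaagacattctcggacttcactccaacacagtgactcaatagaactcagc
Cxcl12, chr6:117168285-117168584, plus strand: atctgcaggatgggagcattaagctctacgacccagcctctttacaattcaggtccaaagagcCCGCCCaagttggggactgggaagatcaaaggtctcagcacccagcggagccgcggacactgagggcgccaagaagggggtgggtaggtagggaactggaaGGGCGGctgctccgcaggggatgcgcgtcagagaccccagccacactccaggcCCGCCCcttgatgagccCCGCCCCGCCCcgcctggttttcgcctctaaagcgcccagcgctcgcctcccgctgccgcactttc
The Cxcl10 window held 3 kappaB matches, of which the 2 nearest to the start overlap, and 1 GAAANNGAAA. The Cxcl1 window held 2 overlapping kappaB matches in 1 run of capitals. Cxcl9 had 0 kappaB matches and 1 TATAAA, which begins 195 bases before the start, and Cxcl12 had 5 GGGCGG and none of the other 3 marked motifs. Of the windows not printed, that of Ccl20 held 1 kappaB match, and that of Cx3cl1 held 1 TATAAA, which begins 6 bases before the start, and 1 GGGCGG. Over the table's 32851 promoter windows, 8.46% held a kappaB match, 3.44% held GAAANNGAAA, 13.6% held TATAAA and 35.7% held GGGCGG. A match in these letters is a description of the sequence and was not set against the expression values by any test.

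Levels are on the log2 scale as deposited, after normalization of all arrays together, so 1 unit is a 2-fold difference. The median of the whole table was 3.52, and a level at or under it was not told apart from background. Levels of different genes come from different probes and are not compared. Differences are a later time minus an earlier one, with limma's standard error (SE), and rose or fell means a Benjamini-Hochberg adjusted p under 0.05 over all probe sets of that comparison. Separate pools of mice back the replicates, and in islets measured whole, fewer cells of a type and less RNA per cell cannot be told apart.

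The arrays carried the signature of islets. The mean level of 8 beta cell markers was 11.0 to 11.09 on the 0 h arrays, 10.48 to 10.77 at 24 h and 10.74 to 10.83 at 48 h. Exocrine RNA was present too, with 15 acinar markers averaging 5.47 to 8.18 at 0 h, 4.18 to 6.99 at 24 h and 3.91 to 5.43 at 48 h. Among the 24 h arrays, replicate 5 had the lowest level of Ccl5, of Cxcl10, of Cxcl12 and of 2 Cxcl1 probe sets, and the lowest mean of 21 interferon-stimulated genes. It and 0 h replicate 3 are the arrays that stood apart in earlier work on these data. A chemokine call that turns on one of them is given with and without it, and shifts in list counts are not all given.

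At 24 h against 0 h, 3 of the 10 chemokines rose (Ccl5, Cxcl10 and Cxcl16) and 1 fell (Cxcl12), while 5.44% of all 18193 genes rose and 6.66% fell. The median difference of the 10 was 0.17, and that of all genes was -0.01. By 48 h, 2 had risen against 0 h (Ccl5 and Cxcl16) and 0 had fallen, against 6.45% and 5.27% of all genes, with a median of 0.08 for the 10 and -0.02 for all genes. Both comparisons use the same 0 h arrays. Cxcl1 is counted here by 1441855_x_at, which did not pass in either. Its probe set 1457644_s_at rose by 2.39 at 24 h and 2.24 at 48 h, and 1419209_at rose by 1.94 at 24 h only. From 24 to 48 h, 0 rose and 1 fell (Ccl5), where 0.429% of all genes rose and 0.33% fell, and the medians were -0.08 for the 10 and 0.00 for all genes. Of the 10 genes, 7 had a mean above the table's median, and 1 (Ccl7) was at or under it on every array. Without 24 h replicate 5, the counts became 4 that rose and 1 that fell at 24 h, 2 and 1 at 48 h against 0 h, and 0 and 2 at 48 h against 24 h, through Cxcl1, Cxcl12 and Cxcl10. Without both 24 h replicate 5 and 0 h replicate 3 they were 3 and 1, 2 and 1, and 0 and 2. Over all 45037 probe sets, 3862, 3815 and 200 passed in the 3 comparisons with every array in the fit. The numbers were 3668, 4221 and 263 without 24 h replicate 5, and 3586, 3496 and 324 without both arrays.

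**Figure D1:**
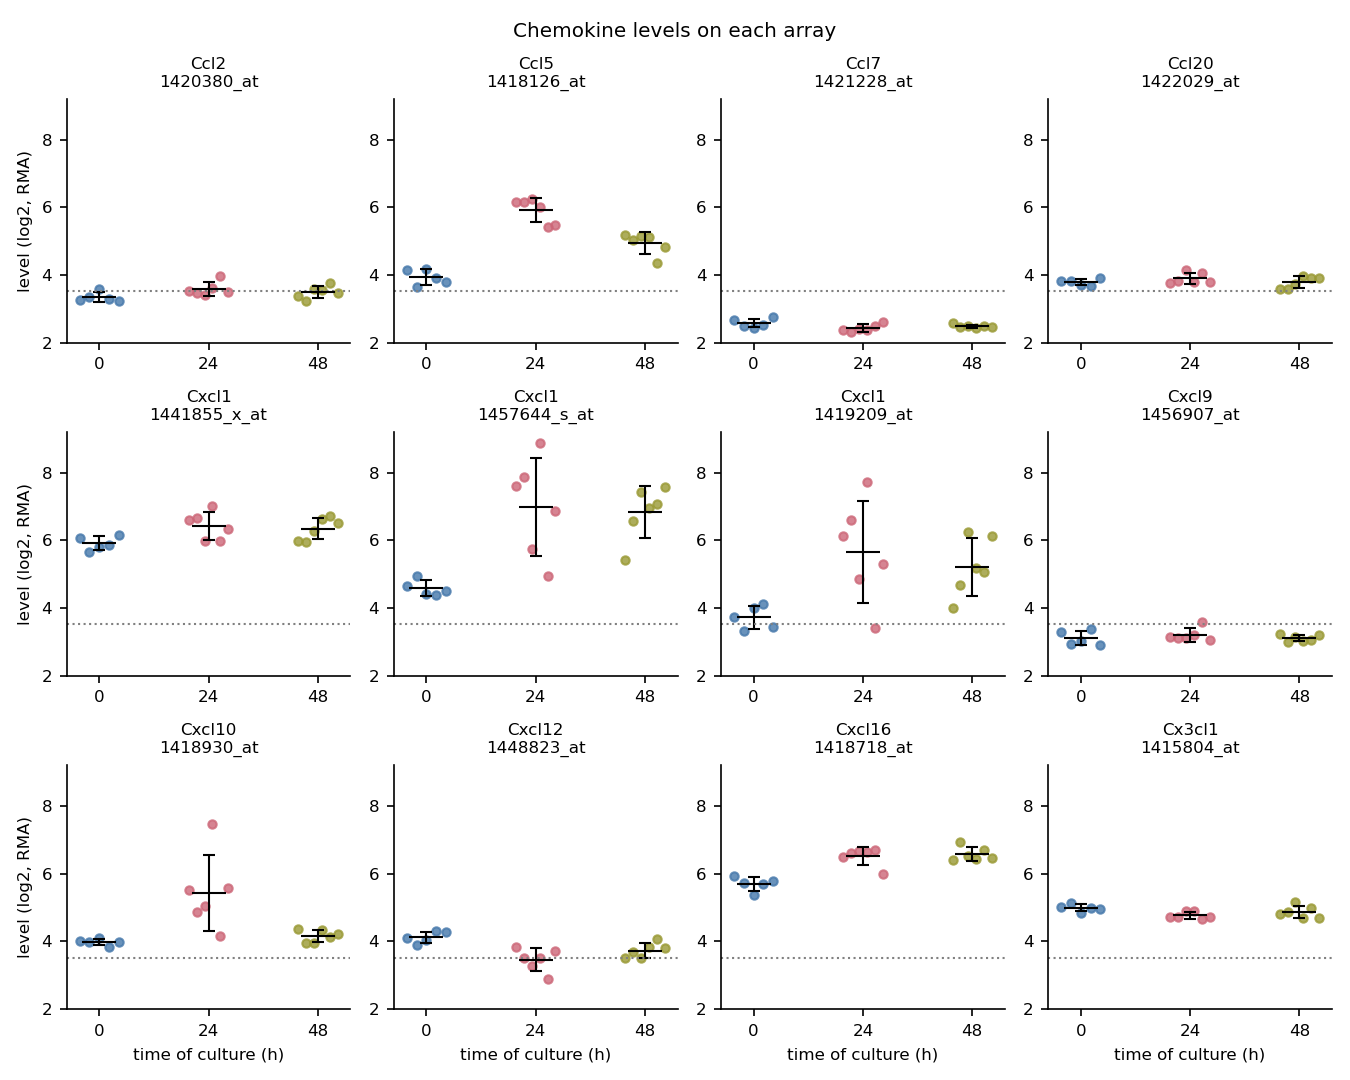
Level of each chemokine on each array (vertical axis, log2) by time of culture in hours (horizontal axis), with the mean and SD of 5, 6 and 6 arrays in black and the table's median of 3.52 as a dotted line; Cxcl1 has 3 panels, 1 per probe set, and levels are not comparable between panels. Ccl5 stood highest at 24 h with no overlap between times, Cxcl16 was higher at both later times, and Cxcl10 and 2 probe sets of Cxcl1 were spread widely at 24 h.

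Ccl5, which draws T cells and monocytes, passed in all 3 comparisons. Its levels at 0 h were 4.14, 3.65, 4.19, 3.92 and 3.78. At 24 h the lowest, median and highest arrays stood at 5.43, 6.07 and 6.23, and at 48 h at 4.35, 5.08 and 5.17. Every 24 h array lay above every 48 h array, and every 48 h array above every 0 h array. The gene rose by 1.97 ± 0.17 (SE) at 24 h, 3.92-fold (limma adjusted p = 4.38e-07), and was higher in 5 of 5 batches that had both arrays, by 1.71 to 2.49. At 48 h it was 1.00 ± 0.17 above 0 h, 2.00-fold (limma adjusted p = 0.000805), again in 5 of 5 batches. Between 24 and 48 h it fell by 0.97 ± 0.16 (limma adjusted p = 0.0107), lower at 48 h in 6 of 6 batches. All 3 calls held in each of 17 fits that left out 1 array.

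Cxcl10, an interferon-inducible ligand of Cxcr3 on activated T cells, rose at 24 h and was near its starting level at 48 h. Its levels were 4.01, 3.97, 4.10, 3.83 and 3.99 at 0 h. The lowest, median and highest were 4.15, 5.29 and 7.46 at 24 h and 3.94, 4.18 and 4.37 at 48 h. Every 24 h array was above every 0 h array, but they ranged widely. Replicate 4 was the highest at 7.46, the next highest was 5.58, and replicate 5 at 4.15 was close to the 0 h arrays. The rise at 24 h was 1.46 ± 0.36, 2.75-fold (limma adjusted p = 0.0147), higher in 5 of 5 batches by 0.90 to 3.63, and it held with any 1 array left out (1.05 to 1.72). With only the 0 and 24 h arrays in the fit the same difference had an adjusted p of 0.0570 by limma and did not pass.

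At 48 h Cxcl10 differed from 0 h by 0.18 ± 0.36 (limma adjusted p = 0.842), with a 95% interval of -0.58 to 0.94. The difference of 48 h from 24 h was -1.28 ± 0.35 (limma adjusted p = 0.124), lower in 6 of 6 batches, and did not pass. Without 24 h replicate 5 it was -1.54 and passed (limma adjusted p = 0.0339).

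Cxcl9, the other interferon-gamma-inducible Cxcr3 ligand, is separated from Cxcl10 on chromosome 5 by 1 protein-coding gene (Art3). Its probe set 1456907_at lay at 2.92 to 3.38 at 0 h, 3.05 to 3.59 at 24 h and 3.00 to 3.24 at 48 h. Only 1 of the 17 arrays, 24 h replicate 5, exceeded the table's median. The difference at 24 h was 0.10 ± 0.10 (95% interval -0.12 to 0.31), and at 48 h it was 0.00 ± 0.10 (-0.21 to 0.22). The second probe set, 1418652_at, was at or under the median on all arrays. A change of Cxcl9 could therefore not be measured above background, while Cxcl10 rose.

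Cxcl1, the neutrophil attractant that acts on Cxcr2, rose at 24 h on 2 of its 3 probe sets and at 48 h on 1. The probe set that stands for the gene, 1441855_x_at, has a suffix that marks probes shared with other sequences. It read 6.08, 5.65, 5.80, 5.88 and 6.17 at 0 h, with 5.97, 6.47 and 7.01 as the lowest, median and highest at 24 h and 5.96, 6.40 and 6.71 at 48 h. Its difference was 0.51 ± 0.18 at 24 h (limma adjusted p = 0.0998, 95% interval 0.13 to 0.89) and 0.43 ± 0.18 at 48 h (limma adjusted p = 0.169), neither of which passed. Without 24 h replicate 5 the first became 0.60 and passed (limma adjusted p = 0.0488).

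The Cxcl1 probe set 1457644_s_at, whose suffix marks probes shared by several transcripts, read 4.66, 4.96, 4.42, 4.40 and 4.52 at 0 h. At 24 h its lowest, median and highest were 4.94, 7.24 and 8.88, and at 48 h 5.41, 7.02 and 7.58. All 48 h arrays were above all 0 h arrays, and at 24 h replicate 5 alone (4.94) lay within the 0 h range. It rose by 2.39 ± 0.53 at 24 h, 5.25-fold (limma adjusted p = 0.00628), and by 2.24 ± 0.53 at 48 h, 4.74-fold (limma adjusted p = 0.0107). Both rises were seen in 5 of 5 batches and held in all 17 fits with 1 array left out. Its 48 h array was higher than its 24 h array in 3 of 6 batches and lower in the others, from -2.19 to 2.14, and the difference was -0.15 ± 0.50.

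The Cxcl1 probe set 1419209_at, with no suffix, read 3.75, 3.33, 4.01, 4.11 and 3.45 at 0 h. Its lowest, median and highest were 3.40, 5.71 and 7.72 at 24 h and 4.00, 5.13 and 6.25 at 48 h. It rose at 24 h by 1.94 ± 0.56 (limma adjusted p = 0.0359, 5 of 5 batches). This call was lost when any 1 of the 5 arrays at 0 h or 24 h replicate 1, 2 or 4 was left out, with values of 1.53 to 2.03 and adjusted p of 0.0506 to 0.0813 by limma. At 48 h the difference of 1.50 ± 0.56 did not pass (limma adjusted p = 0.114). Without 24 h replicate 5, an array outside this comparison, it was still 1.50 and passed (limma adjusted p = 0.0423). Only the error shared by all times and the adjustment changed.

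The study's own rule of selection was a mean signal above 4-fold that at 0 h. On linear signals, the ratio of means of the Cxcl1 probe sets was 7.53 for 1457644_s_at, 5.61 for 1419209_at and 1.46 for 1441855_x_at at 24 h, and 5.19, 3.18 and 1.36 at 48 h. With 1 array left out, a check added after the data were seen, 1457644_s_at stayed above 4-fold at both times (5.18 to 8.79 at 24 h and 4.67 to 5.88 at 48 h), and 1419209_at was at 3.63 at 24 h without 24 h replicate 4. The 24 h ratio of Ccl5 was 3.97 over all arrays, and above 4 without 0 h replicate 1 (4.12) or 3 (4.16) or 24 h replicate 5 (4.21) or 6 (4.19). For Cxcl10 it was 3.69 over all arrays, 2.20 without 24 h replicate 4, and above 4 without 24 h replicate 2 (4.06), 3 (4.01) or 5 (4.21). Over all arrays Cxcl1 alone of the 10 genes had a probe set above 4-fold, and for Ccl5 and Cxcl10 the side of that bound turned on single arrays.

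**Figure D2:**
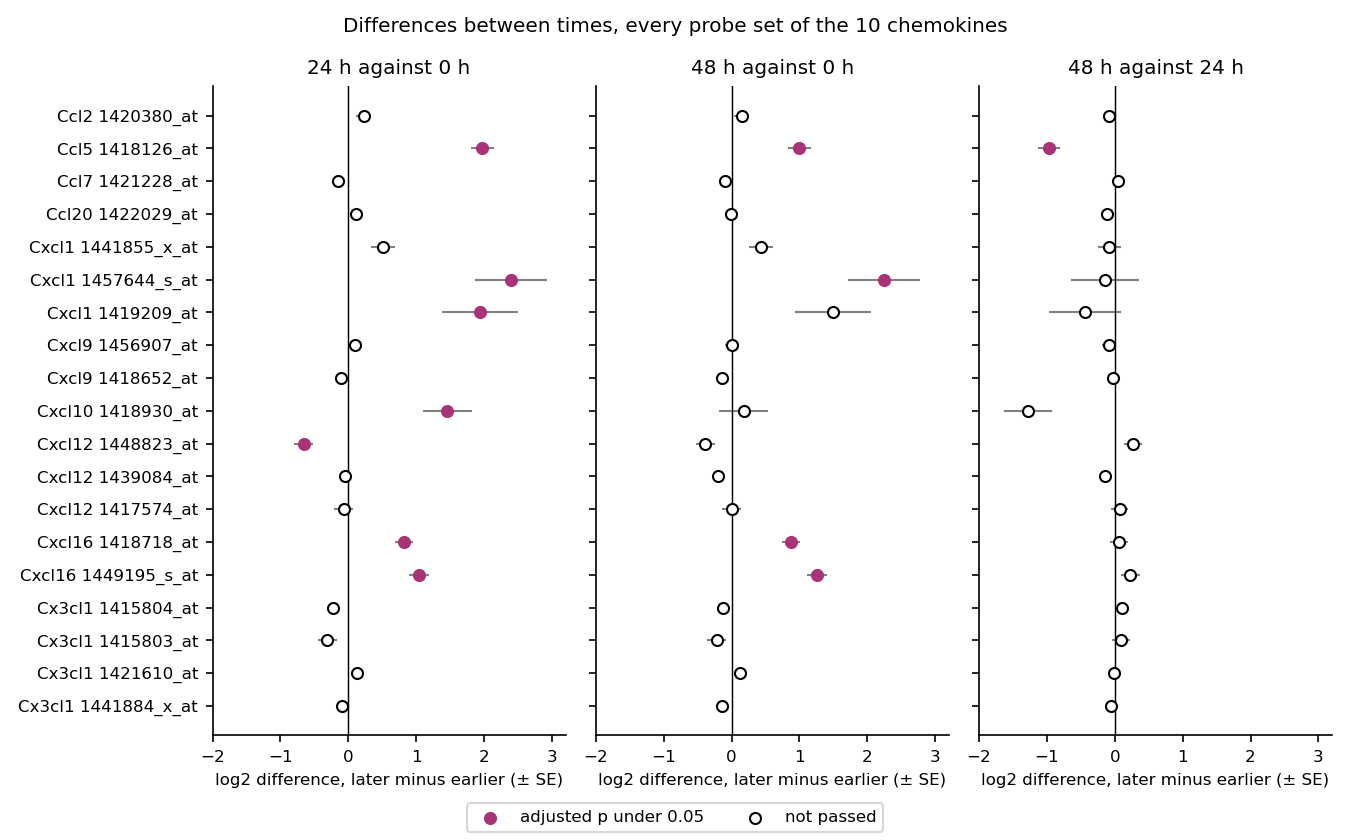
Log2 difference of each of the 19 probe sets (rows) in each comparison (panels), later time minus earlier time, with bars of 1 SE; filled points had an adjusted p under 0.05. The 3 Cxcl1 probe sets range from 0.51 to 2.39 at 24 h, both Cxcl16 probe sets rose at both, and Ccl5 is the only filled point at 48 h against 24 h.

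Cxcl16 and Cx3cl1 are the 2 chemokines made as membrane-anchored proteins and shed by the proteases Adam10 and Adam17. Cxcl16, the ligand of Cxcr6, read 5.92, 5.72, 5.36, 5.69 and 5.79 at 0 h. The lowest, median and highest were 5.98, 6.63 and 6.70 at 24 h, and 6.40, 6.49 and 6.94 at 48 h. Neither later time overlapped 0 h, and the lowest 24 h array was replicate 6. Cxcl16 rose by 0.82 ± 0.13 at 24 h, 1.76-fold (limma adjusted p = 0.00038), and by 0.88 ± 0.13 at 48 h, 1.84-fold (limma adjusted p = 0.000249), in 5 of 5 batches each time. Its second probe set, 1449195_s_at, rose by 1.04 ± 0.15 and 1.26 ± 0.15. From 24 to 48 h the first probe set differed by 0.06 ± 0.13 (95% interval -0.20 to 0.33).

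Cx3cl1, also called fractalkine and the ligand of Cx3cr1 on macrophages, had 4 probe sets, of which 1421610_at and 1441884_x_at were at or under the median on all arrays. The probe set that stands for it read 5.02, 5.12, 4.85, 4.99 and 4.95 at 0 h. Its lowest, median and highest were 4.67, 4.72 and 4.90 at 24 h and 4.70, 4.84 and 5.15 at 48 h. Its difference was -0.22 ± 0.08 at 24 h (limma adjusted p = 0.125, 95% interval -0.39 to -0.05) and -0.12 ± 0.08 at 48 h (-0.29 to 0.05) relative to 0 h, and neither passed. The fourth probe set, 1415803_at, differed by -0.31 ± 0.14 at 24 h (95% interval -0.60 to -0.02) and -0.22 ± 0.14 at 48 h (-0.50 to 0.07). The 2 membrane-anchored chemokines gave values of opposite sign at both times, of which those of Cxcl16 passed and those of Cx3cl1 did not.

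Cxcl12, which acts on Cxcr4 and Ackr3 and is made by stromal and endothelial cells, was the only one of the 10 to fall against 0 h. It read 4.10, 3.90, 4.03, 4.30 and 4.28 at 0 h, with 2.90, 3.51 and 3.83 as the lowest, median and highest at 24 h and 3.50, 3.74 and 4.06 at 48 h. All 24 h arrays lay below all 0 h arrays, and 4 of the 6 were at or under the table's median. The gene fell by 0.66 ± 0.14 at 24 h, 1.58-fold (limma adjusted p = 0.00466), lower in 5 of 5 batches and it passed in all 17 fits with 1 array left out. With each array raised to the table's median where it was lower, the difference was -0.51. At 48 h it was -0.39 ± 0.14 (limma adjusted p = 0.0992), lower in 5 of 5 batches. Without 24 h replicate 5, an array outside this comparison, the difference was still -0.39 and passed (limma adjusted p = 0.0375). Only the error shared by all times and the adjustment changed. The 2 other probe sets of Cxcl12 lay near background, from 3.06 to 3.97, and neither passed in any comparison.

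Markers of endothelial and stromal cells were measured beside Cxcl12. Of 13 endothelial markers, 6 fell and 1 rose at 24 h and 9 fell and 0 rose at 48 h, and the mean of the list was 5.42 to 5.72 at 0 h, 4.80 to 4.99 at 24 h and 4.35 to 4.75 at 48 h. The summed linear signal of the list was 1200 to 1510 at 0 h, 631 to 720 at 24 h and 423 to 561 at 48 h. Ptprb, an endothelial phosphatase, fell by 2.34 ± 0.17 at 24 h and 2.82 ± 0.17 at 48 h. Without 0 h replicate 1 the count that rose at 24 h was 2. Of 13 fibroblast, stellate cell and pericyte markers, 5 fell and 0 rose at 24 h, and 3 fell and 3 rose at 48 h. The mean of that list was 4.57 to 4.83 at 0 h, 3.99 to 4.15 at 24 h and 4.32 to 4.60 at 48 h, and its summed linear signal was 645 to 1000 at 0 h, 247 to 280 at 24 h and 439 to 724 at 48 h. The pericyte gene Rgs5 fell by 3.07 ± 0.24 at 24 h and 3.12 ± 0.24 at 48 h. The collagen gene Col3a1 fell by 1.10 ± 0.21 at 24 h and was 1.71 ± 0.21 above 0 h at 48 h. Col1a2, another collagen gene, rose by 0.99 ± 0.15 at 48 h. Their part in the fall of Cxcl12 was not tested.

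Ccl2 and Ccl7, ligands of Ccr2 that draw monocytes, lie side by side on chromosome 11 with 0 protein-coding genes between them, and both were near background. Ccl2 read 3.24 to 3.57 at 0 h, 3.40 to 3.98 at 24 h and 3.22 to 3.75 at 48 h, and 10 of the 17 arrays were at or under the table's median. Its difference was 0.23 ± 0.11 at 24 h (limma adjusted p = 0.228, 95% interval 0.01 to 0.45) and 0.15 ± 0.11 at 48 h (-0.07 to 0.37). Ccl7 lay at 2.44 to 2.76, 2.30 to 2.62 and 2.42 to 2.58 at 0, 24 and 48 h. Its differences from 0 h were -0.15 ± 0.07 at 24 h and -0.10 ± 0.07 at 48 h and neither passed.

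Ccl20, the ligand of Ccr6 on Th17 cells and dendritic cells, was just above the median on all arrays, at 3.68 to 3.92 at 0 h, 3.77 to 4.16 at 24 h and 3.57 to 3.98 at 48 h. The times overlapped, with differences of 0.11 ± 0.09 at 24 h (95% interval -0.09 to 0.31) and -0.01 ± 0.09 at 48 h (-0.21 to 0.19). From 24 to 48 h, the chemokines not yet given for that step differed by 0.27 ± 0.13 (Cxcl12, limma adjusted p = 0.46), 0.10 (Cx3cl1), 0.05 (Ccl7), -0.08 (Ccl2), -0.09 (Cxcl9, 1456907_at) and -0.12 (Ccl20), and none of these passed.

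**Figure D3:**
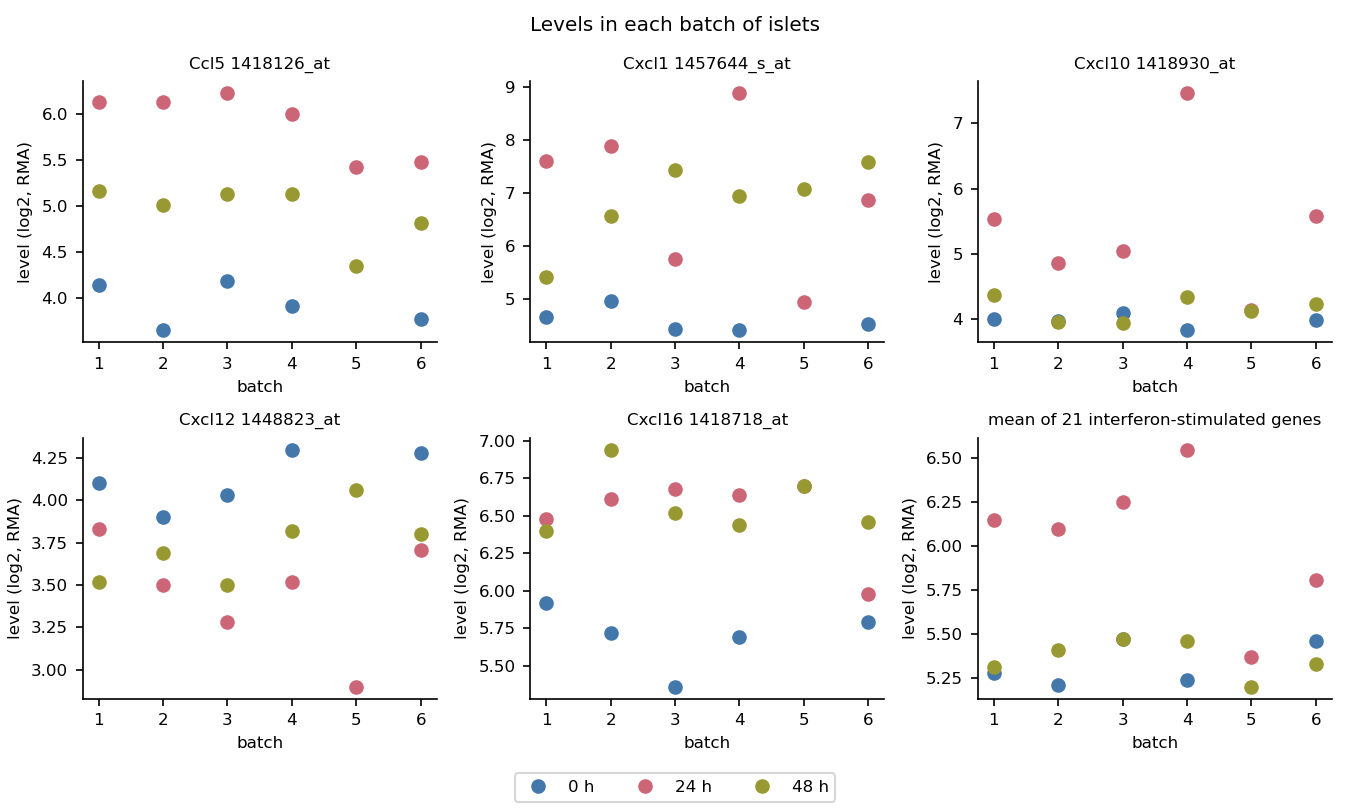
Level (vertical axis, log2) of 5 chemokines and the mean of 21 interferon-stimulated genes in each batch of islets (horizontal axis, 1 to 6), coloured by time of culture; batch 5 has no 0 h array, and each panel has its own axis range. In batch 4 the 24 h array was the highest for Cxcl1, Cxcl10 and the interferon-stimulated mean, and in batch 5 the 24 h array lay close to the 48 h array for Cxcl10.

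Cxcl10 is itself an interferon-stimulated gene, and 21 others were measured. At 24 h, 11 of the 21 rose (14 without 24 h replicate 5, 13 with batch as a block) and 0 fell, with a median of 0.52. Among them were Ifit3 (1.67 ± 0.26, limma adjusted p = 0.000292), the guanylate-binding proteins Gbp2 (1.64 ± 0.36) and Gbp3 (1.57 ± 0.26), and the immunoproteasome subunit Psmb8 (1.37 ± 0.08, limma adjusted p = 5.17e-09). By 48 h, 3 had risen and 2 had fallen against 0 h (median 0.09), including Psmb8 (1.01 ± 0.08) and the GTPase Iigp1 (-1.32 ± 0.27), which was at background on all 48 h arrays and so fell by at least 0.77 on the log2 scale. The count of 2 was 1 without any of 11 arrays: 0 h replicates 1, 2, 4 and 6, 24 h replicates 2 and 4, and 48 h replicates 1, 3, 4, 5 and 6. From 24 to 48 h, 0 rose and 4 fell (median -0.47), Ifit3 by 1.57 ± 0.25. Without 24 h replicate 5 the last count was 12, with batch as a block it was 7, and it was 2 without 0 h replicate 2 or 4, 24 h replicate 1, 2, 3 or 4, or 48 h replicate 1, 2, 5 or 6. The list's mean was 5.28, 5.21, 5.47, 5.24 and 5.46 at 0 h, 5.37 to 6.55 at 24 h and 5.20 to 5.47 at 48 h. At 24 h replicate 4 had the highest and replicate 5 the lowest mean, as they had for Cxcl10 and for Cxcl1 (1457644_s_at).

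Of 15 genes of interferon signalling, 5 rose and 1 fell at 24 h, and 3 rose and 0 fell at 48 h. They include the transcription factors Irf7 (1.57 ± 0.28 at 24 h) and Irf9 (1.12 ± 0.18 at 24 h and 0.84 ± 0.18 at 48 h). Another is Socs3, a feedback inhibitor of cytokine signalling (1.92 ± 0.25 and 1.51 ± 0.25). The gene that fell was the receptor chain Ifngr1 (-0.35 ± 0.11, limma adjusted p = 0.049, named after its values were seen), a call that was lost with batch as a block and in 14 of the 17 fits with 1 array left out, and held without 24 h replicate 1, 3 or 4. Without 0 h replicate 4 the 5 became 3, and without 24 h replicate 5 or 6 the 3 became 5. Between 24 and 48 h, 0 of the 15 passed by limma (1 at an unadjusted p under 0.05), and 2 fell without 24 h replicate 5 and 1 without 48 h replicate 3. Of the 20 genes of NF-kappaB signalling, 3 rose and 1 fell at 24 h and 4 rose and 1 fell at 48 h. Ikbkg, the regulatory subunit of the IkappaB kinase, rose by 1.12 ± 0.08 at 24 h and 0.55 ± 0.08 at 48 h, and the TNF receptor Tnfrsf1a by 0.84 ± 0.10 and 0.49 ± 0.10. The receptor adaptor Myd88 rose by 0.48 ± 0.09 at 24 h and the signalling adaptor Traf2 by 0.41 ± 0.10 at 48 h. Il1rap, a chain of the receptor for Il1b, fell by 0.42 ± 0.11 at 24 h and 0.53 ± 0.11 at 48 h, and its 24 h call was lost without 0 h replicate 1, 4 or 6. Without 24 h replicate 6, 2 fell at 24 h. At 48 h the 4 became 2 without 0 h replicate 4. At 48 h against 24 h, 0 rose and 1 fell, Ikbkg by 0.57 ± 0.08.

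Of 13 cytokines that can induce chemokines, 9 were at or under the table's median on all arrays. Il1b rose at 24 h by 0.53 ± 0.11 (limma adjusted p = 0.00342), with 4.06 to 4.45 at 24 h and 4.01, 3.63, 3.81, 3.55 and 3.43 at 0 h, and these arrays did not overlap. At 48 h its difference from 0 h was 0.13, with arrays at 3.59 to 4.13, and it did not pass. None of the other 12 passed at 24 h, and 0 of the 13 passed by limma in the other 2 comparisons, where 2 (48 h against 0 h) and 1 (48 h against 24 h) had an unadjusted p under 0.05.

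**Figure D4:**
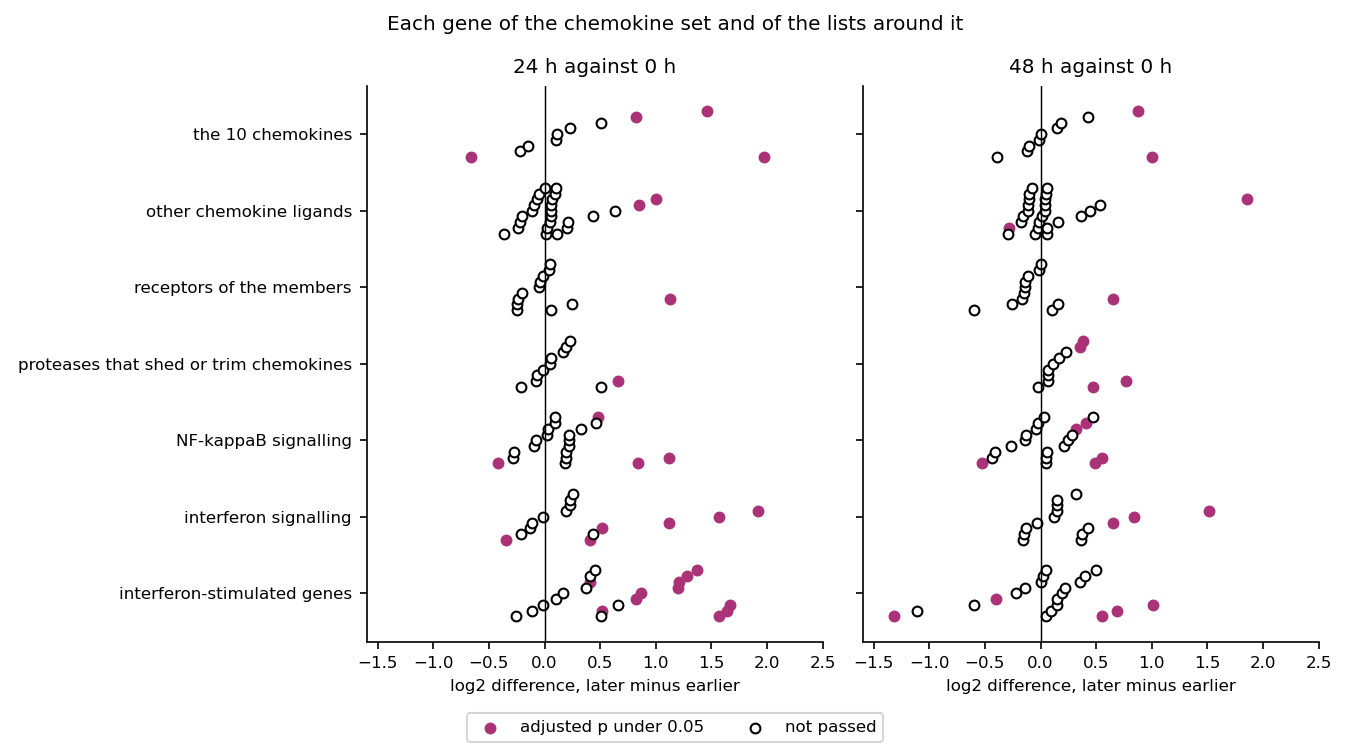
Log2 difference (horizontal axis, later minus earlier) of each gene of the 10 chemokines and of 6 lists around them (rows) at 24 h and 48 h against 0 h; filled points had an adjusted p under 0.05, and the vertical spread within a row only separates points. Filled points among interferon-stimulated genes lie on the right at 24 h and on both sides at 48 h, and most other chemokine ligands and receptors lie near 0.

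Among the receptors of these chemokines, 12 were measured and 4 were at or under the median on all arrays. Cxcr4, the receptor of Cxcl12, was the only one that passed. It read 2.74, 2.61, 2.67, 2.56 and 2.72 at 0 h, all background, and 3.21, 3.78 and 4.36 as the lowest, median and highest at 24 h, and rose by 1.13 ± 0.18 (limma adjusted p = 0.000298). Against the table's median as the floor, this is a log2 rise of at least 0.32. At 48 h it read 2.86 to 3.89, with 4 of 6 arrays at or under the median, and rose by 0.65 ± 0.18 (limma adjusted p = 0.0274), or at least 0.06 against that floor, a call lost without 0 h replicate 2, 3 or 4 or without 48 h replicate 2 or 3 (adjusted p 0.0510 to 0.0671 by limma).

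Ackr3, the other receptor of Cxcl12, scavenges the ligand and differed by 0.05 ± 0.27 at 24 h and -0.60 ± 0.27 at 48 h (limma adjusted p = 0.213). Ccr2 differed by 0.25 ± 0.10 at 24 h (limma adjusted p = 0.16). Ackr1 and Ackr2, which also take up chemokines without signalling, were -0.24 ± 0.09 and -0.25 ± 0.08 at 24 h, and neither passed. Ackr2 passed without 0 h replicate 1 (-0.31, limma adjusted p = 0.0151). Cx3cr1 (-0.25 ± 0.10) passed without 48 h replicate 5, an array outside this comparison (still -0.25, limma adjusted p = 0.0468). Cxcr2, Cxcr6, Ccr1 and Ccr3 stayed at background, Ccr6 differed by at most 0.16, and Cxcr3 by -0.20 and -0.26, without passing. Between 24 and 48 h, 0 of the 12 passed by limma, and 3 had an unadjusted p under 0.05.

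Of 28 other chemokine ligands, 25 were measured and 13 were at or under the median on all arrays. At 24 h, 2 rose and 0 fell (median 0.06), and at 48 h 1 rose and 1 fell (median 0.01). Ccl28, an epithelial chemokine, rose at 24 h by 0.85 ± 0.24 (limma adjusted p = 0.0367, 5 of 5 batches). Its arrays read 7.11 to 8.06 at 24 h, against 6.26 to 7.08 at 0 h. The call was lost when 0 h replicate 1, 2 or 4 or 24 h replicate 1, 2, 3, 4 or 6 was left out (0.72 to 0.86, adjusted p 0.0579 to 0.106 by limma). Cxcl2, which shares the receptor Cxcr2 with Cxcl1, also passed at 24 h (1.00, limma adjusted p = 0.0204), and is named here after its values were seen. At or under the median were 4 of its 6 arrays at 24 h and all of those at 0 h, and against that floor the log2 rise was at least 0.09. It did not pass without 0 h replicate 1 or 24 h replicate 1 or 4, which left 0 of the 25 called (adjusted p 0.0505 to 0.0592 by limma).

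Pf4, a platelet and macrophage chemokine also called Cxcl4, followed another course. It read 3.94, 4.20, 3.94, 4.09 and 3.91 at 0 h, 4.31 to 5.67 at 24 h and 5.05 to 6.28 at 48 h. It rose by 1.86 ± 0.23 at 48 h against 0 h (limma adjusted p = 3.03e-05) and by 1.23 ± 0.22 against 24 h (limma adjusted p = 0.0127), and both held with any 1 array left out. The only ligand outside the 10 that fell was Ccl6 at 48 h (-0.28, all arrays at background, named after its values were seen), and with batch as a block it did not pass (adjusted p = 0.0531 by limma), nor in 11 of the 17 fits with 1 array left out, which left 1 called ligand. Of 9 other chemokine receptors, 0 passed at 24 h by limma (1 at an unadjusted p under 0.05) and 1 fell at 48 h (Ccr4, -0.22, at background on all arrays, named after its values were seen), and with batch as a block, or without 0 h replicate 3, 4 or 6 or 48 h replicate 2, 3 or 6, 0 passed.

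Proteases that release or trim chemokines include Adam10, which sheds Cxcl16 and Cx3cl1 and rose at 48 h by 0.38 ± 0.11 (limma adjusted p = 0.0325, 5 of 5 batches). The collagenolytic enzyme Mmp14 rose by 0.77 ± 0.17 at 48 h, and the lysosomal protease Ctsk by 0.66 ± 0.14 at 24 h and 0.47 ± 0.14 at 48 h. In all, 1 of 11 rose at 24 h (2 with batch as a block) and 4 at 48 h, and 0 fell. The fourth at 48 h was Mmp12 (0.35), at background on all arrays and named after its values were seen. The first count was also 2 without 48 h replicate 6, and the second was 2 without 0 h replicate 1, 2 or 3 or 48 h replicate 2. Whether the Adam10 call was among those lost is not given here, nor is a value for Adam17. Of 15 syndecans, glypicans and heparan sulfate enzymes, whose sugar chains hold chemokines at cell surfaces, Sdc3 fell by 0.79 ± 0.09 at 24 h and 0.49 ± 0.09 at 48 h, Sdc2 fell by 0.34 ± 0.09 at 48 h and the chain-building enzyme Ext1 rose by 0.38 ± 0.11 at 48 h. That list had 0 that rose and 1 that fell at 24 h, and 1 that rose and 2 that fell at 48 h. With batch as a block, 1 rose at 24 h and 0 at 48 h. With 1 array left out, 0 to 2 rose at either time, with 2 at 24 h without 24 h replicate 5 and 2 at 48 h without 24 h replicate 6, and 1 to 2 fell at 48 h, with 1 without 0 h replicate 6.

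Markers of leukocytes that carry or answer these chemokines gave the following levels. Of 12 lymphocyte markers, 8 were at background on all arrays, 0 passed at 24 h by limma (0 at an unadjusted p under 0.05) and 1 fell at 48 h (Cd79b, at background on all arrays and named after its values were seen, and 0 with batch as a block and in 12 of the 17 fits with 1 array left out), and the list's mean was 3.05 to 3.14 at 0 h, 3.05 to 3.16 at 24 h and 2.93 to 3.14 at 48 h. Of 9 neutrophil markers 0 passed in any comparison by limma, 1 had an unadjusted p under 0.05 at 48 h against 0 h, and the list's mean lay between 3.05 and 3.23. Among the 20 markers of macrophages and dendritic cells, 1 rose at 24 h while 8 fell, and 3 rose at 48 h while 4 fell. The mean of this list was 5.37 to 5.85 at 0 h, 4.99 to 5.30 at 24 h and 5.17 to 5.57 at 48 h. Its summed linear signal was 2230 to 3660 at 0 h, 1210 to 1650 at 24 h and 1350 to 1880 at 48 h. The 3 that rose at 48 h became 1 without 0 h replicate 2. Csf1r, the receptor for the growth factor that keeps macrophages alive, fell by 1.58 ± 0.14 at 24 h, the class II antigen-presenting chain H2-Aa fell by 1.69 ± 0.19, and the lysosomal protein Cd68 rose by 1.84 ± 0.15. At 48 h these 3 differed from 0 h by -1.21 ± 0.14, -2.58 ± 0.19 and 2.16 ± 0.15. From 24 to 48 h, 2 of the 20 rose (Lyz2 by 1.54 ± 0.18, Laptm5 by 0.65 ± 0.11). In that step 2 fell (H2-Aa by 0.88 ± 0.18, H2-Eb1 by 0.81 ± 0.13). With 1 array left out, 2 to 4 rose and 1 to 2 fell. Their part in the chemokine values was not tested.

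The remaining marker lists stood as follows. Of 8 beta cell markers, 6 fell at 24 h and 5 at 48 h, and of 7 other endocrine markers 4 and 1 fell (4 and 2 with batch as a block), with 0 that rose in either list. Of 15 acinar markers, 2 fell at 24 h (1 with batch as a block) and 7 at 48 h, and of 6 duct markers 1 rose at each time, the keratin Krt7 by 1.19 ± 0.10 and 0.87 ± 0.10. At 48 h 1 duct marker also fell with batch as a block or without 0 h replicate 6. Counts that 1 left-out array moved by over 1.5 times were the 2 acinar markers (1 without 24 h replicate 1, 4 or 5 or 48 h replicate 2), the 5 beta cell markers at 48 h (3 without 0 h replicate 1 or 48 h replicate 6), and the other endocrine markers (2 in place of 4 without 0 h replicate 1 or 3 or 24 h replicate 2 or 4, and 2 in place of 1 without 24 h replicate 5 or 48 h replicate 1 or 3).

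For each chemokine that passed against 0 h, the genes with the most similar course were found among 11909 genes above the table's median, as the root mean square (RMS) difference over 17 arrays after each gene's own mean was subtracted. For Cxcl10 these were Ifit3 (0.474), Ifit1 (0.484) and Gbp3 (0.494), where the spread of Cxcl10 about its own mean was 0.899. For Ccl5, with a spread of 0.839, they were Cip2a (0.289), Gbp8 (0.346) and Gstm1 (0.353). For Cxcl16, with 0.442, they were Gm17767 (0.163), Trafd1 (0.165) and Cbwd1 (0.173), and for Cxcl12, with 0.351, B4galnt4 (0.174), Cacnb2 (0.187) and C2cd2l (0.191). The 3 genes nearest to Cxcl10 were all in the list of interferon-stimulated genes, and their mean levels at 0, 24 and 48 h were 5.55, 7.21 and 5.64 for Ifit3, 3.79, 5.00 and 3.79 for Ifit1, and 5.02, 6.60 and 5.43 for Gbp3. Gbp8, an interferon-inducible guanylate-binding protein and the second nearest to Ccl5, averaged 2.65, 4.46 and 3.89, and its 0 h mean was under the table's median, so its likeness to Ccl5 rests in part on 0 h values not told apart from background.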

How the data were processed

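Islet RNA of 17 samples was measured on single-colour Affymetrix mouse expression arrays. The authors deposited log2 values made with RMA, per the submitters' processing notes, and the sources used here give no version of it. RMA normalizes all arrays to each other, so a shift shared by most genes is removed and differences of weak genes are compressed. The log base was inferred from the values, 1.55 to 13.81, and no detection call was used. The number of arrays limits the precision.

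Of 45101 probe sets, 64 controls were left out. The platform annotation gave 34945 probe sets 1 symbol, 932 several and 9160 none here. Differences were fitted over all 17 arrays with limma 3.58.1 (lmFit, eBayes, R 4.3.3), checked on simulated data, with Benjamini-Hochberg adjustment over 45037 probe sets. The 10 chemokines and 18 lists (268 genes outside the 10, 244 measured) were chosen with earlier results of these data known, so they lend no independent support. Named list genes were up to 4 per list and comparison, those with the largest differences among the called genes above the table's median at 1 of the times; all receptors of the 10 were described. Other genes are marked where named. Intervals use limma's moderated error, which rests on the spread of all 17 arrays and not only on that of the times compared.

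The design text says that a replicate number marks a shared batch, which pairs the arrays. Deviations from the time means had a median correlation of 0.00545 over 16 pairs of the same batch (-0.159 to 0.274, 4 over 0.1) and of -0.00978 over 80 other pairs. The alternatives were a block for batch (fixed, or random), the complete batches alone, array weights, another variance prior, renormalization, a filter on low values, other choices of probe set, fitting only the times compared, and leaving out arrays. Motifs were searched in the RefSeq promoter windows on both strands with Python 3.11.15.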

Additional observations from a re-analysis of the deposited data

Results flagged for a closer look

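Within each time, an array was picked out where its gap to the nearest other array was large against the range of the group, by Dixon's 95% critical value. Of 57 groups of arrays (19 probe sets at 3 times), 5 met this, and chance picks out about 1 in 20, or 2.85 groups. The groups share arrays, and some share a gene, so they are not independent and 5 cannot be weighed against 2.85.

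In 2 of the 5, 24 h replicate 5 was high. Ccl2 read 3.98 there, against 3.60 on the next array, and Cxcl9 (1456907_at) read 3.59, against 3.22. For Cxcl16, 24 h replicate 6 was low on both probe sets, at 5.98 (nearest 6.48) on 1418718_at and at 5.16 (nearest 5.75) on 1449195_s_at, and both were still above all 0 h arrays. The Cxcl12 probe set 1417574_at read 3.97 on 48 h replicate 1, where the next array read 3.30.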

How the results depend on the processing

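Over the settings tried, 827 of 861 values of the 10 chemokines kept their direction and their side of the threshold, 1 lost its call, 12 gained one and 21 turned in sign, none of the last called. The call that was lost was Cxcl10 at 24 h with only the times compared (1.46, limma adjusted p = 0.0570). The turned values were Cxcl9 at 24 h without both arrays that stood apart (-0.00139) and with the mean of all probe sets (-0.01), Ccl20 at 48 h against 0 h after median centring (0.03), after quantile normalization (0.02) and with 1 array left out (-0.05 to 0.03), and Cxcl9 at 48 h against 0 h with the replicate block (-0.03), without both arrays (-0.02), with array weights (-0.01), with the mean of probe sets (-0.07) and with 1 array left out (-0.05 to 0.07). Between 24 and 48 h, Cxcl1 ran from -0.17 to 0.04 and Cxcl16 from -0.04 to 0.10 with 1 array left out. Cxcl1 passed at 24 h with complete batches (0.60), array weights (0.59), no x or s probe sets (1.94) and the mean of probe sets (1.61), and at 48 h with the last (1.39). Cxcl12 passed at 48 h with complete batches (-0.46), without both arrays (-0.42) and with only the times compared (-0.39), and Cxcl10 at 48 h against 24 h without both arrays (-1.54). The cause was not tested.

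Among counts, the other ligands at 24 h (2) gave 1 with the filter on low values or the mean of probe sets and 0 to 3 with 1 array left out. Against 0 h at 48 h (2) they gave 1 with the replicate block, without both arrays, after median centring or quantile normalization, with the filter, with only the times compared or with the mean of probe sets, and 1 to 2 with 1 array left out. Receptors at 24 h (1) gave 2 with complete batches, 0 with the filter and 1 to 2 with 1 array left out, and at 48 h against 0 h (1) gave 0 without both arrays, 0 with the filter, 2 with the mean of probe sets and 0 to 1 with 1 array left out. Called members at 48 h against 24 h (1) gave 2 without both arrays and 1 to 2 with 1 array left out. All probe sets called at 48 h against 24 h (200) gave 324 without both arrays, 321 with array weights and 102 (without 48 h replicate 2) to 263 with 1 array left out, with 131 without 24 h replicate 2. With the replicate block, 3640, 3572 and 224 probe sets passed in the 3 comparisons, against 3862, 3815 and 200 without it, the members called were 4, 2 and 1 as before, and it changed no call of a member. A floor at the level of olfactory receptors gave no value, since no called member had all arrays of a time at background.

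Levels at or under the table's median of 3.52, the cutoff chosen here, were not told apart from background. This leaves Ccl7, nearly all of Cxcl9 and most of Ccl2 unmeasured above background and makes the size of the fall of Cxcl12 uncertain. Each time has 5 or 6 arrays and each array is a pool of 4 mice, so the spread between single animals was not measured.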
